A study of Mus musculus with 48 samples.

Results

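The interferon regulatory factors (IRFs) are transcription factors that carry signals from interferons and from pathogen sensors to the genome. They were read here in 2 cell types of the neonatal mouse brain, CD11B+ microglia and O4+ cells, at 2 ages and after injection of interleukin 1B (IL1B) or of phosphate-buffered saline (PBS). Members were taken by name from the array annotation, as the non-control probes named for the genes reported here. They comprised 8 genes, Irf1 to Irf5 and Irf7 to Irf9, of 24105 names on the array, with 9 of its 55681 probes.

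Male mouse pups, strain Swiss in the labels and OF1 in the methods, received IL1B at 10 ng/g or PBS into the peritoneum from postnatal day 1 (P1) to P4 with a last injection at P5. The labels name no genetic alteration. Cells were collected at P5, 2 h after the last injection in the labels and 4 h in the methods, or at P10, 5 days later. O4+ cells (immature oligodendrocytes and their late progenitors) were taken first with magnetic beads, and CD11B+ microglia were then taken from the O4-negative fraction of the same animals. The labels speak of 6 mice per group, whereas the methods have each sample as a pool of 3 brains and treat the 6 samples per group as independent, so p-values measure the spread between such samples. The 8 groups were CD11B+ P5 PBS, CD11B+ P5 IL1B, CD11B+ P10 PBS, CD11B+ P10 IL1B and the same 4 in O4+ cells, with 1 one-color Agilent array per sample and 48 arrays in all. The description field of the P10 labels repeats P5, and the title, source and stage fields, which give P10, were used.

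Type I interferons signal through receptor-bound kinases to a complex that holds IRF9 and switches on interferon-stimulated genes. Irf1 is an early target of interferon gamma. IRF3 and IRF7 are activated downstream of nucleic acid and Toll-like receptor sensors and induce the interferon genes themselves, and IRF5 acts below Toll-like receptors on inflammatory cytokine genes. IRF2 often counters IRF1 at shared sites. IRF4 and IRF8 work with partner proteins such as PU.1 and BATF, and IRF8 is needed for the development of microglia.

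Per array, 52.9% to 65.4% of probes were well above background, and arrays of the same group correlated at 0.958 or more. In CD11B+ cells all 15 microglial markers were above background on every array. They were also above background on every O4+ array. In PBS pups 13 of the 15 were lower there than in CD11B+ cells at both ages, whereas the brightest Itgam probe was higher and Siglech differed by 0.39 (log2) at P5 and 0.30 at P10, and both stayed in the list's mean. The mean of the 15 markers had a median of 16.06 (log2 signal) in the CD11B+ P5 PBS group, of 13.77 in O4+ P5 PBS, of 14.69 in O4+ P5 IL1B, of 12.56 in O4+ P10 PBS and of 13.02 in O4+ P10 IL1B. Of the 3 probes for Itgam, which encodes CD11B, the brightest went against the sort, at 15.84 in O4+ P5 PBS and 13.84 in CD11B+ P5 PBS, whereas a second probe stood at 7.57 and 11.19 and the third at 4.62 and 7.52. In these bulk samples fewer cells of a type and less RNA per cell cannot be told apart.

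The promoter sequences of 3 members are shown because these factors answer interferon and inflammatory signals, and because Irf1, Irf2 and Irf8 each hold a match to a motif of such signals in the window from 250 bases before to 50 bases after the start. They come from RefSeq (GRCm38.p6, all on the plus strand), and capitals mark the motif matches:
Irf1, chr11:53769916-53770013: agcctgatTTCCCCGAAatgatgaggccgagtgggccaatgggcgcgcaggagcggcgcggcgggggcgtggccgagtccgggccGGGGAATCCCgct
Irf2, chr8:46739496-46739537: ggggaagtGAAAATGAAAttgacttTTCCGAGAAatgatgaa
Irf8, chr8:120736179-120736221: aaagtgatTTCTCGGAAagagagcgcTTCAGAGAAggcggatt
The motifs searched, on both strands, were the interferon-stimulated response element GAAANNGAAA, the gamma-activated sequence TTCNNNGAA, through which interferon gamma acts, and the kappaB site bound by NF-kappaB. In Irf1 the gamma-activated sequence lay 90 to 82 bases before the start and the kappaB site 13 to 4 bases before it. In Irf2 the response element lay 241 to 232 bases and the gamma-activated sequence 224 to 216 bases before the start, and a kappaB site lay 17 to 8 bases before it, outside the printed stretch. In Irf8 a pair of gamma-activated sequences lay 171 to 163 and 153 to 145 bases before the start. Of 32851 promoters of the same length, 3.44% held the response element, 8.3% the gamma-activated sequence and 8.46% the kappaB site, and of the 11 promoters of the 8 members 1, 3 and 2 did. The promoters of Irf3, Irf4, Irf5, Irf7 and Irf9 held none of these letters in the window, and no reading of factor binding is drawn from a match or its absence.

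Each level below is that of 1 probe, so levels were compared between groups and not between genes. In the mm9 build the probes lay at chr11:53590746-53590805 (Irf1), chr8:47932486-47932545 (Irf2), chr7:52257700-52257759 (Irf3), chr13:30858532-30858591 (Irf4), chr6:29486901-29486960 (Irf5), chr8:123280324-123280383 (Irf8) and chr14:56228806-56228865 (Irf9), all on the plus strand and within the transcript of their gene. The Irf7 probe spans a splice junction on the minus strand, chr7:148450664-148451014, and its 60 bases are shown because the largest response to IL1B in CD11B+ cells at P5 rested on this single probe.
Irf7 probe: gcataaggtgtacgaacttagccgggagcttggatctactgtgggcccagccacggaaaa
A second Irf1 probe, at chr11:53591817-53591876, was above background on no O4+ array and on 1 to 4 of 6 arrays per CD11B+ group, and the brighter probe stood for the gene.

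All 8 factors had more signal in CD11B+ cells than in O4+ cells. On the scale shared by all 48 arrays, every CD11B+ group mean lay above every O4+ group mean for each of the 8 genes. Calls required an adjusted p below 0.05 together with group medians over 1.5-fold apart. In PBS pups at P5, 7 of the 8 were lower in O4+ cells and 0 were higher, where 21.8% of all probes were lower and 19.8% higher. In PBS pups at P10, 8 of 8 were lower, against 20.2% of all probes lower and 22.2% higher. No member was higher at an unadjusted p under 0.05 in limma or was called higher by the methods' t-test at either age. The median difference of the members was -2.34 (log2) at P5 and -2.87 at P10, against -0.05 and 0.00 over all probes.

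Irf8 and Irf5 differed most between the cell types at P10 among the factors with signal above background in both. The Irf8 difference was -3.37 ± 0.10 (SE, n = 6 per group, log2) at P5 and -5.24 ± 0.12 at P10, which is a ratio of medians of -9.69 and -39.5, the minus sign marking the lower group. The Irf5 difference was -3.82 ± 0.12 at P5 and -5.32 ± 0.16 at P10, or ratios of -13.5 and -37.8. Over the 15 microglial markers the same differences had a median of -3.01 at P5 and -4.59 at P10, with Aif1 at -3.17 and -4.65. The part of microglial RNA in the O4+ levels was not tested. Irf4 stood at a ratio of -18.5 at P5. At P10 the Irf4 probe was above background on 0 of 6 O4+ PBS arrays and on all CD11B+ arrays, so it was at least 38.2-fold lower in O4+ cells (adjusted p = 2.44e-08).

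The other factors differed less between the cell types. Irf3, the sensor-activated factor present in most cells, was lower in O4+ cells by a ratio of -1.42 at P5, under the threshold, and of -1.90 at P10. It was called at P5 when arrays were scaled to the 75th percentile (-1.13, log2) or read from the deposited matrix (-1.24). Irf9, the DNA-binding part of the type I interferon complex, stood at -3.12 and -4.74, Irf2 at -4.16 and -4.33, Irf1 at -3.68 and -8.55 and Irf7 at -5.70 and -5.45. Of the slides, 1 held P5 PBS arrays of both cell types, 2 O4+ and 1 CD11B+, and there the Irf8 difference was -3.53 and that of Irf5 -3.88. No slide held P10 PBS arrays of both cell types, so at P10 the cell type cannot be told apart from the slide.

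**Figure D1:**
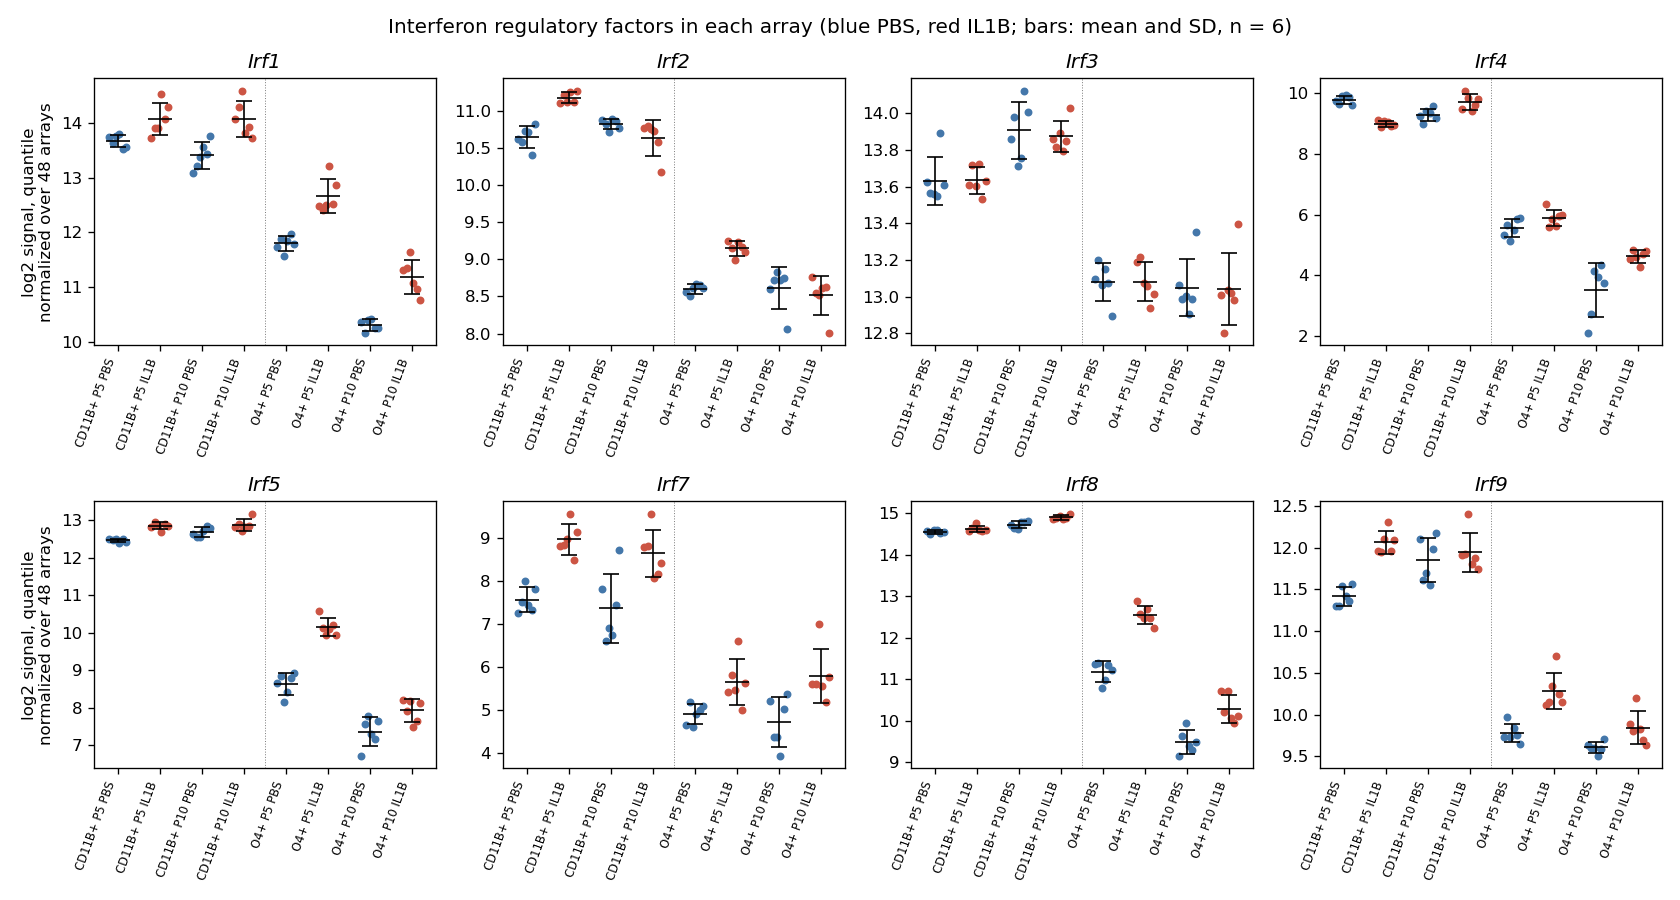
Log2 signal of each interferon regulatory factor (vertical axis, quantile-normalized over all 48 arrays, own scale per panel) in the 8 groups (horizontal axis). Points are arrays, blue for PBS and red for IL1B, and bars give the mean and SD over 6 arrays. The 4 CD11B+ groups stand left of the dotted line and their means lie above the O4+ means in every panel, and the Irf4 level drops in CD11B+ P5 IL1B cells.

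The order of the 8 groups differed from factor to factor. For Irf8 it ran from CD11B+ P10 IL1B (14.90 ± 0.05, SD, n = 6) over CD11B+ P10 PBS (14.72 ± 0.08), CD11B+ P5 IL1B (14.62 ± 0.07) and CD11B+ P5 PBS (14.55 ± 0.04) to O4+ P5 IL1B (12.55 ± 0.22), O4+ P5 PBS (11.18 ± 0.25), O4+ P10 IL1B (10.29 ± 0.34) and O4+ P10 PBS (9.48 ± 0.28). Neighbours in this order did not overlap except for the 3 lower CD11B+ groups among themselves and the 2 P10 O4+ groups. For Irf1 the 5 highest groups, from CD11B+ P10 IL1B (14.07 ± 0.32) to O4+ P5 IL1B (12.67 ± 0.31), overlapped each with the next, and O4+ P10 PBS was lowest at 10.31 ± 0.10. For Irf7 the order began with CD11B+ P5 IL1B (8.97 ± 0.36) and CD11B+ P10 IL1B (8.64 ± 0.55) and ended with O4+ P10 PBS (4.72 ± 0.57), and the only gap between neighbours lay between CD11B+ P10 IL1B and CD11B+ P5 PBS (7.56 ± 0.29). For Irf4 the highest group was CD11B+ P5 PBS (9.78 ± 0.14) and the lowest CD11B+ group was CD11B+ P5 IL1B (9.0 ± 0.10). For Irf3 the range of group means was the narrowest, from 13.91 ± 0.16 in CD11B+ P10 PBS to 13.04 ± 0.20 in O4+ P10 IL1B.

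The Irf2 order began with CD11B+ P5 IL1B (11.18 ± 0.08), which no other group overlapped, and the 3 lowest, O4+ P10 PBS, O4+ P5 PBS and O4+ P10 IL1B, lay between 8.61 and 8.51 with overlap. For Irf5 the CD11B+ groups lay between 12.87 and 12.46 and the O4+ groups between 10.15 and 7.36, and CD11B+ P5 PBS overlapped with neither neighbour. For Irf9 the highest mean was 12.06 ± 0.14 in CD11B+ P5 IL1B and the lowest 9.61 ± 0.07 in O4+ P10 PBS, and CD11B+ P5 PBS (11.41 ± 0.11) stood apart from the O4+ groups.

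In CD11B+ cells at P5, IL1B moved the factors in both directions. Irf7 and Irf9 rose and Irf4 fell, so 2 of 8 members were higher and 1 lower, against 4.05% and 5.25% of all probes. Irf2 and Irf5 were also above PBS on all arrays, under the 1.5-fold threshold. The median change over the members was 0.41 (log2), against -0.01 over all probes.

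Irf7, which drives interferon alpha and beta production and is itself an interferon-stimulated gene, had log2 signals from 7.0 to 7.76 (median 7.22) in the PBS group and from 8.24 to 9.36 (median 8.69) in the IL1B group. The lowest IL1B sample lay above the highest PBS sample. The rise was 1.45 ± 0.19 (SE, n = 6 per group, log2) or 2.77-fold between medians, with an adjusted p of 0.000184. Irf9 ranged from 11.23 to 11.51 (median 11.32) with PBS and from 11.90 to 12.28 (median 11.99) with IL1B, again without overlap, a rise of 0.67 ± 0.08 or 1.59-fold (adjusted p = 9.2e-05).

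Irf4, which partners PU.1 and BATF and takes part in alternative activation of macrophages, ran the other way. Its signal lay between 9.41 and 9.77 (median 9.63) in the PBS group and between 8.66 and 8.91 (median 8.79) in the IL1B group. Every IL1B sample was below every PBS sample. The level fell by 0.83 ± 0.08 on the log2 scale, a ratio of medians of -1.80 (adjusted p = 1.375e-05).

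Irf2 was higher by 0.56 ± 0.07 (1.44-fold, adjusted p = 0.000197) and Irf5 by 0.41 ± 0.05 (1.32-fold, adjusted p = 0.000182). Irf2 signals were 10.28 to 10.72 with PBS and 11.02 to 11.20 with IL1B, and Irf5 signals 12.36 to 12.49 and 12.68 to 12.95. Both groups were thus apart, at a size below the threshold. Irf1 differed by 0.41 ± 0.13 (1.23-fold, adjusted p = 0.0442) with overlapping groups. Irf8, the factor of microglial identity, differed by 0.07 ± 0.05 (adjusted p = 0.343) and Irf3 by 0.00 ± 0.07 (adjusted p = 0.977).

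With the array slide as a block the Irf7 and Irf9 calls were lost (1.23, adjusted p = 0.118, and 0.53, adjusted p = 0.0939) and the Irf4 call was kept. Within the single slide that held both groups, 4 IL1B arrays against 1 PBS array, the differences were 1.23, 0.53 and -0.69. The 7 measured markers of neutrophils and monocytes, which also carry CD11B, all rose in this comparison, by a median of 4.22 (log2). Their mean went from 9.02 to 10.23 in the PBS group to 12.93 to 13.58 in the IL1B group. Of the 15 microglial markers P2ry12, Fcrls and Gpr34 fell, with a median of -0.09 over the list. The part of these cells in the factor levels was not tested.

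In CD11B+ cells at P10, 5 days after the last injection, 1 factor was called. Irf1 was higher, and 0 of 8 were lower, against 1.09% and 1.08% of all probes. No member was lower at an unadjusted p under 0.05 in limma or by the methods' t-test, while 5 were higher at that unadjusted p. The median change was 0.20, against 0.00 over all probes.

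Irf1, an early target of interferon gamma and NF-kappaB, ranged from 13.10 to 13.79 (median 13.42) in the PBS group and from 13.75 to 14.64 (median 14.02) in the IL1B group, with a small overlap. The rise was 0.68 ± 0.16 or 1.52-fold (adjusted p = 0.0356). It stayed called when PBS replicate 6, IL1B replicate 4 or IL1B replicate 6 was left out and was lost without any 1 of the 9 others, where the adjusted p lay between 0.0544 and 0.0852. It was also lost with slide as a block (0.55, adjusted p = 0.473) and stood at 0.55 within the slide that held 5 IL1B and 2 PBS arrays.

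Irf7 was 1.30 ± 0.39 higher at P10, a 2.75-fold ratio of medians, with an adjusted p of 0.0682. The PBS group ran from 6.34 to 8.50 (median 6.91) and the IL1B group from 7.82 to 9.38 (median 8.37). The groups overlapped and Irf7 was not called. PBS replicate 6, at 8.50, was the one PBS sample inside the IL1B range. Within the shared slide the difference was 0.62.

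Irf8 was above PBS on every IL1B array, by 0.19 ± 0.05 (1.10-fold, adjusted p = 0.0419), from 14.68 to 14.87 against 14.92 to 15.07. Irf4 was higher by 0.44 ± 0.13 (1.36-fold, adjusted p = 0.0716) and Irf5 by 0.20 ± 0.09 (adjusted p = 0.195). Irf2 stood at -0.20 ± 0.11 (adjusted p = 0.307), Irf9 at 0.09 ± 0.15 (adjusted p = 0.743) and Irf3 at -0.03 ± 0.08 (adjusted p = 0.828). The 7 neutrophil and monocyte markers had a median change of 1.00, with none past the thresholds in limma, and their mean was 9.29 to 11.69 with PBS and 10.42 to 11.27 with IL1B.

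Between P5 and P10 the response of CD11B+ cells to IL1B differed for 3 factors in the test of the difference, for which no fold threshold was used. Of 8 members 1 was higher and 2 lower, against 10.5% and 6.3% of all probes. The Irf4 response was 1.27 ± 0.16 higher at P10 than at P5 (adjusted p = 6.6e-06), from a fall at P5 to a positive value at P10. The Irf2 response was lower by -0.76 ± 0.13 (adjusted p = 0.000243) and the Irf9 response by -0.58 ± 0.17 (adjusted p = 0.0195). The Irf7 responses at the 2 ages differed by -0.15 ± 0.44 (adjusted p = 0.858) and those of Irf1 by 0.27 ± 0.21 (adjusted p = 0.447), so no age difference was detected for them. The Irf9 difference was lost with the deposited matrix (adjusted p = 0.366), the slide (0.281) or the scan day (0.0704) as alternatives, and the Irf2 difference with the matrix (adjusted p = 0.109).

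In O4+ cells at P5, 4 factors rose with IL1B. Irf5, Irf8, Irf1 and Irf7 were higher, so 4 of 8 members were called higher and 0 lower, against 3.43% and 1.49% of all probes. No member was lower at an unadjusted p under 0.05 in limma or by the methods' t-test. The median change was 0.64, against -0.04 over all probes.

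Irf5, which links Toll-like receptors to cytokine genes, had signals from 8.40 to 9.15 (median 8.95) in the PBS group and from 10.11 to 10.69 (median 10.26) in the IL1B group. The rise was 1.43 ± 0.14 or 2.48-fold (adjusted p = 4.6e-05). Irf8 ran from 10.88 to 11.46 (median 11.35) with PBS and from 12.27 to 12.88 (median 12.54) with IL1B, a rise of 1.31 ± 0.12 or 2.29-fold (adjusted p = 3.7e-05). Neither pair of groups overlapped, and the Irf5 and Irf8 calls were kept under all alternatives tried. Within the 2 slides that held both groups the Irf8 difference was 1.25 and 1.80, and the Irf5 difference 1.37 and 1.91.

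Irf1 ran from 11.63 to 12.02 (median 11.86) with PBS and from 12.44 to 13.19 (median 12.53) with IL1B, without overlap. It rose by 0.83 ± 0.13 or 1.59-fold (adjusted p = 0.00101). With slide as a block the rise was 0.64 at an adjusted p of 0.0501, within the 2 shared slides it was 0.53 and 0.77, and with the mean over both Irf1 probes the adjusted p was 0.0952. With the deposited matrix the ratio fell short of 1.5. Irf7, from 4.86 to 5.45 (median 5.22) against 5.27 to 6.86 (median 5.81), rose by 0.75 ± 0.23 or 1.51-fold (adjusted p = 0.0394) with overlapping groups. This call was the least stable. It held without PBS replicate 2 or IL1B replicate 5 and was lost without any 1 of the 10 other arrays (change 0.56 to 0.80). The call was also lost in limma with slide (adjusted p = 0.255), scan day (adjusted p = 0.0742) or replicate number (adjusted p = 0.0575) as a block. The methods' t-test, run without a block, lost it too (adjusted p = 0.0537). So did normexp, normalization over all 48 arrays and all 4 groups in 1 fit.

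Irf2 and Irf9 were above PBS on every array, at 0.53 ± 0.05 (1.44-fold, adjusted p = 3.6e-05) and 0.47 ± 0.09 (1.34-fold, adjusted p = 0.00437), under the fold threshold. Irf2 ranged from 8.74 to 8.90 with PBS and from 9.20 to 9.46 with IL1B. Irf4 differed by 0.33 ± 0.16 (adjusted p = 0.197) and Irf3 by 0.00 ± 0.06 (adjusted p = 0.986).

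Microglial markers moved in the same O4+ samples. Of the 15, 10 rose with IL1B at P5, with a median change of 1.05 and a range from -0.22 to 1.79. C1qb changed by 1.79, Aif1 by 1.49, Csf1r by 1.05 and Tmem119 by 1.08, whereas P2ry12 stood at 0.47, Gpr34 at 0.34 and Siglech at -0.01. The mean of the 15 lay between 13.32 and 13.90 in the PBS group and between 14.49 and 14.90 in the IL1B group. The 7 neutrophil and monocyte markers also rose, and 3 of them were above background on no O4+ P5 PBS array. The part of microglial or blood-derived RNA in the IRF changes was not tested.

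**Figure D2:**
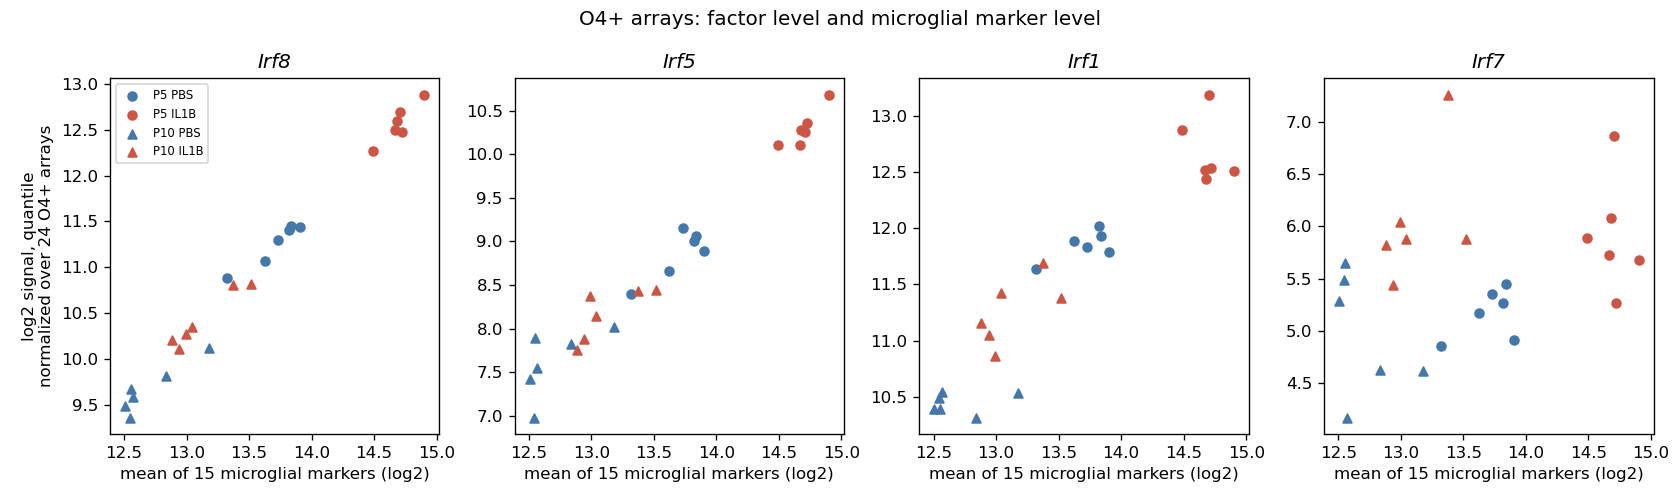
Log2 signal of Irf8, Irf5, Irf1 and Irf7 in the 24 O4+ arrays (vertical axis, quantile-normalized over these arrays) against the mean log2 signal of 15 microglial markers in the same arrays (horizontal axis). Circles are P5 and triangles P10, blue is PBS and red IL1B. Irf8 and Irf5 run with the marker mean from the P10 PBS arrays at the lower left to the P5 IL1B arrays at the upper right, and Irf7 scatters.

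The response at P5 differed between the cell types for 3 factors by the interaction term, 3 of 8 higher in O4+ than in CD11B+ cells and 0 lower, against 6.93% and 3.78% of all probes. The Irf8 response was 1.30 ± 0.14 larger in O4+ cells (adjusted p = 1.16e-06), the Irf5 response 1.13 ± 0.16 larger (adjusted p = 3.2e-05) and the Irf4 response 1.11 ± 0.18 larger (adjusted p = 0.000131), the last from a fall in CD11B+ cells beside 0.33 in O4+ cells. Over the 15 microglial markers the same difference had a median of 1.30. The Irf7 response was -0.67 ± 0.29 (adjusted p = 0.183), the 1 member lower at an unadjusted p under 0.05. The Irf1 difference was 0.47 ± 0.19 (adjusted p = 0.122), and Irf2 (0.01 ± 0.09, adjusted p = 0.946) and Irf9 (-0.15 ± 0.13, adjusted p = 0.574) showed no detectable difference between cell types.

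In O4+ cells at P10, Irf1 and Irf8 were called higher with IL1B, 2 of 8 members, and 0 lower, against 2.49% and 1.42% of all probes. No member was lower at an unadjusted p under 0.05 in limma or by the methods' t-test. The median change was 0.66, against -0.02 over all probes.

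Irf1 ran from 10.31 to 10.55 (median 10.44) with PBS and from 10.86 to 11.69 (median 11.27) with IL1B, without overlap, a rise of 0.82 ± 0.12 or 1.78-fold (adjusted p = 0.00333). Irf8 ran from 9.36 to 10.12 (median 9.63) and from 10.10 to 10.82 (median 10.31), which overlapped by 1 sample on either side, a rise of 0.76 ± 0.16 or 1.60-fold (adjusted p = 0.0134). Within the slide that held 2 IL1B and 5 PBS arrays the Irf1 difference was 0.95 and that of Irf8 0.91, and on the slide with 1 of each they were 0.47 and 0.59. Both calls were kept under all alternatives tried.

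Irf7 stood 1.09 ± 0.33 above PBS (1.85-fold, adjusted p = 0.0582) and was not called. It ran from 4.16 to 5.65 with PBS and from 5.44 to 7.26 with IL1B, with overlap. The Irf4 probe was above background on 0 of 6 PBS arrays and 6 of 6 IL1B arrays, which gave at least 1.52-fold (adjusted p = 0.0676). Irf4 was not called, and its groups overlapped, at 2.23 to 4.58 with PBS and 4.5 to 5.08 with IL1B. Irf5 differed by 0.56 ± 0.19 (adjusted p = 0.0856), Irf9 by 0.22 ± 0.08 (adjusted p = 0.116), Irf2 by -0.10 ± 0.15 and Irf3 by -0.01 ± 0.10. Of the 15 microglial markers 7 rose (median change 0.50), and 4 of the 7 neutrophil and monocyte markers rose. Their mean was 2.79 to 4.10 with PBS and 4.33 to 5.65 with IL1B. Their part in the factor levels was not tested.

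**Figure D3:**
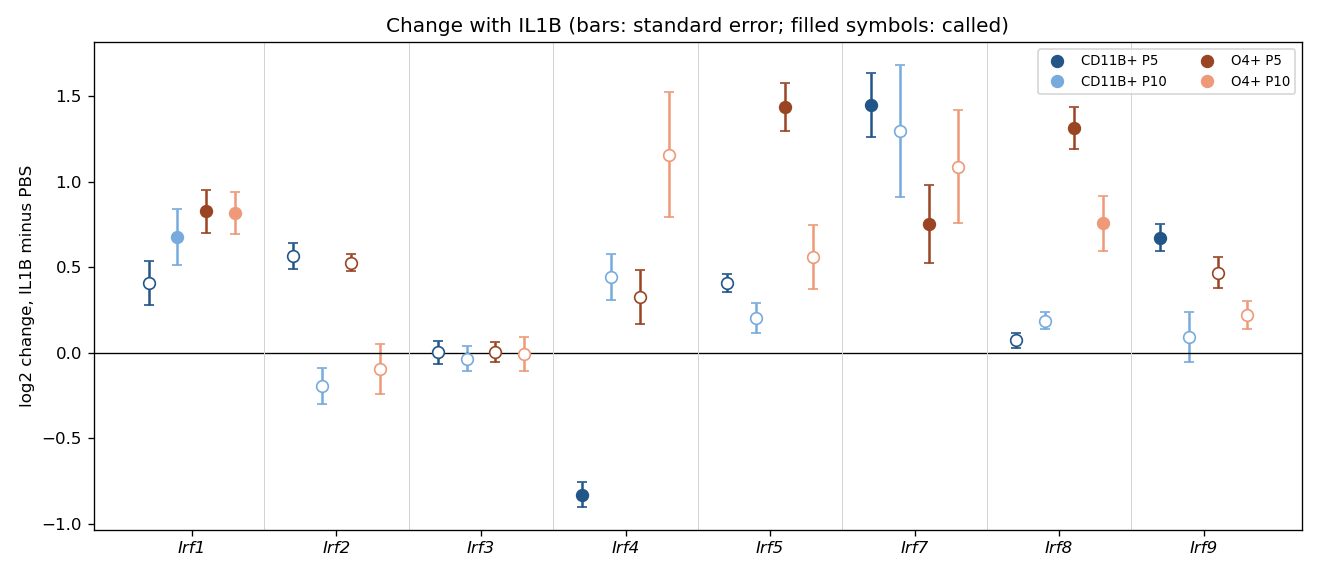
Change with IL1B (log2, IL1B minus PBS, vertical axis) for each factor (horizontal axis) in CD11B+ cells at P5 and P10 and in O4+ cells at P5 and P10. Bars are standard errors of 6 against 6 arrays and filled symbols are called changes. Irf4 in CD11B+ cells at P5 is the only called fall, and Irf3 lies at 0 in all 4 comparisons.

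The O4+ response was smaller at P10 than at P5 for 2 factors, 0 of 8 members higher and 2 lower, against 7.83% and 5.32% of all probes. The Irf2 response differed by -0.62 ± 0.16 (adjusted p = 0.0107) and that of Irf5 by -0.88 ± 0.24 (adjusted p = 0.017). No member was higher at an unadjusted p under 0.05 in limma. The Irf8 difference was -0.56 ± 0.21 (adjusted p = 0.0815), and that of Irf1 was -0.01 ± 0.18 (adjusted p = 0.983). The same difference over the 15 microglial markers had a median of -0.47, with 7 lower. The Irf5 call was lost with the deposited matrix (adjusted p = 0.0643) or slide as a block (adjusted p = 0.0923). At P10 the response of Irf8 was 0.63 ± 0.18 larger in O4+ than in CD11B+ cells (adjusted p = 0.0347), 1 of 8 higher and 0 lower (0 at an unadjusted p under 0.05 in limma), against 3.92% and 3.65% of all probes. This call was lost (adjusted p 0.0503 to 0.0608) without any 1 of 10 of the 24 arrays, O4+ PBS replicates 1, 4 and 5, O4+ IL1B replicates 1 and 3, CD11B+ PBS replicates 1, 4 and 5 and CD11B+ IL1B replicates 4 and 5, and with arrays scaled to the 75th percentile (adjusted p = 0.0515), the matrix (0.101) or slide as a block (0.0829).

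With age, from P5 to P10 in PBS pups, 4 factors fell in O4+ cells. Irf8, Irf4, Irf1 and Irf5 were lower, 4 of 8 members, and 0 were higher, against 8.96% and 7.85% of all probes. No member was higher at an unadjusted p under 0.05 in limma or by the methods' t-test. The median change was -0.72, against 0.02 over all probes.

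Irf8 fell by 1.59 ± 0.14 on the log2 scale, a ratio of medians of -3.30 (adjusted p = 4.6e-06), and Irf1 fell by 1.40 ± 0.07 (ratio -2.67, adjusted p = 5.5e-08). Irf5 fell by 1.25 ± 0.19 (ratio -2.39, adjusted p = 0.000251). For all 3 every P10 sample lay below every P5 sample, for example 9.36 to 10.12 against 10.88 to 11.46 for Irf8. Irf4, from 5.40 to 6.15 at P5 and above background on no P10 PBS array, was at least 2.97-fold lower (adjusted p = 0.000869). With normexp background correction its change was -0.61 and the call was lost, since the ratio of medians fell short of 1.5. Irf2 (0.01 ± 0.11), Irf3 (-0.03 ± 0.08) and Irf7 (-0.20 ± 0.24, adjusted p = 0.584) were not called, and Irf9 stood at -0.16 ± 0.06 (adjusted p = 0.0413), under the fold threshold. Of the 15 microglial markers 12 fell with age in the same samples and 1, the brightest Itgam probe, rose, with a median of -1.23. Their part in the fall of the 4 factors was not tested.

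In CD11B+ cells of PBS pups 0 of 8 factors were called higher and 0 lower with age, against 4.65% and 3.61% of all probes. In limma 5 were higher and 2 lower at an unadjusted p under 0.05, and the methods' t-test called 0. Irf4 differed by -0.52 ± 0.10 (ratio of medians -1.45, adjusted p = 0.00331), with all P10 samples (8.78 to 9.39) below all P5 samples (9.41 to 9.77). Irf5 (0.23 ± 0.06, adjusted p = 0.0174) and Irf8 (0.18 ± 0.05, adjusted p = 0.0137) were higher at P10 on every array, and Irf9 was higher by 0.46 ± 0.12 (1.39-fold, adjusted p = 0.0166). Irf3 differed by 0.28 ± 0.09 (adjusted p = 0.0362), Irf2 by 0.18 ± 0.07 (adjusted p = 0.0938), Irf1 by -0.26 ± 0.11 (adjusted p = 0.113) and Irf7 by -0.19 ± 0.34 (adjusted p = 0.772). P5 and P10 arrays of PBS pups shared no slide or scan day, so within-slide values do not exist for the 2 age comparisons. In both cell types, age therefore cannot be told apart from slide and scan day, which includes the 4 factors called lower in O4+ cells.

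**Figure D4:**
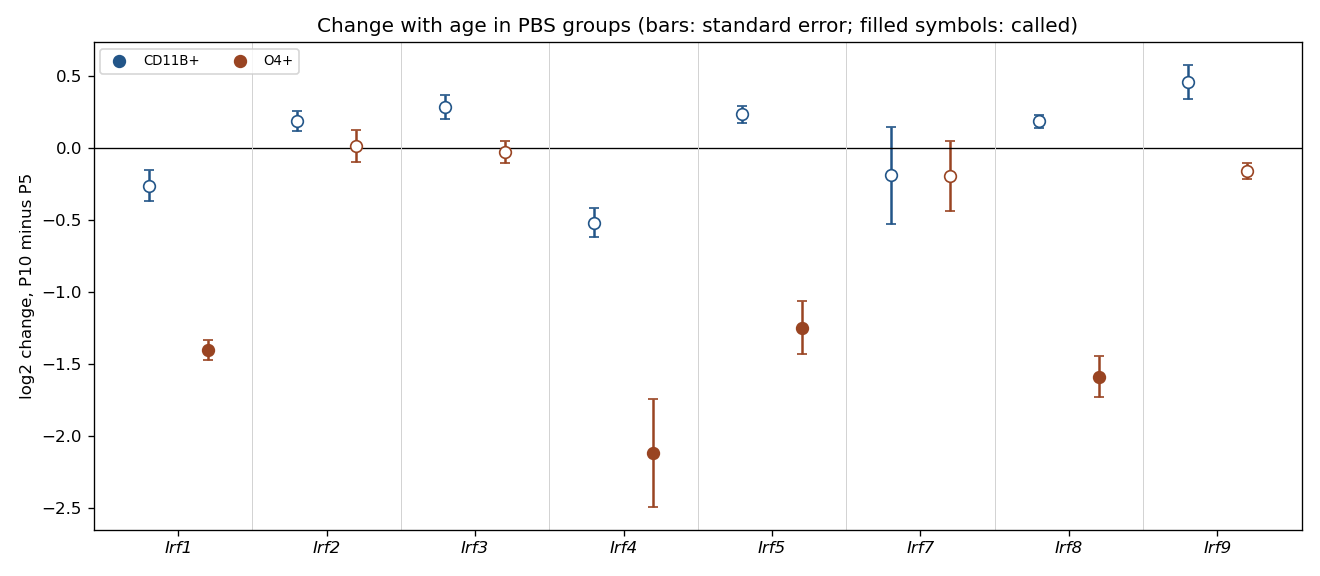
Change from P5 to P10 in PBS pups (log2, P10 minus P5, vertical axis) for each factor (horizontal axis), in CD11B+ cells and O4+ cells. Bars are standard errors of 6 against 6 arrays, and filled symbols are called changes. Irf1, Irf4, Irf5 and Irf8 are called lower in O4+ cells, and no factor is called in CD11B+ cells.

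The wider interferon pathway was read from 52 measured genes of 5 lists. With IL1B at P5, 22 rose and 1 fell in CD11B+ cells, and 26 rose in O4+ cells. At P10 8 rose in CD11B+ cells and 13 in O4+ cells. These counts stand beside the shares of all probes given above for the same comparisons. With slide as a block 12 genes were called in CD11B+ cells at P5 and 0 at P10. The P10 count in CD11B+ cells was 4 or 5 without PBS replicate 1, 2 or 3 or IL1B replicate 3 or 5, and 14 without PBS replicate 6, and that in O4+ cells was 8 with normexp background correction.

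Among the 5 ligand genes, Ifng, which encodes interferon gamma, rose in CD11B+ cells at P5 (adjusted p = 1.25e-05) and at P10 (adjusted p = 0.0247). Its probe was above background on 3 of 6 PBS arrays at P5 and on 1 of 6 at P10, so no fold is given. Ifnb1, which encodes interferon beta, fell by 1.46 ± 0.28 on the log2 scale in CD11B+ cells at P5 (ratio -2.63, adjusted p = 0.00252) and rose at P10 by 0.57 ± 0.10 (1.58-fold, adjusted p = 0.017). The difference between the ages was 2.03 ± 0.30 (adjusted p = 5.2e-05). In O4+ cells Ifng was above background on 0 of 6 PBS and 2 of 6 IL1B arrays at P5, and no fold is given. Lymphocytes and natural killer cells, the usual sources of interferon gamma, were represented by 7 lymphocyte markers, whose mean in CD11B+ cells at P5 was 5.37 to 6.41 with PBS and 6.02 to 6.62 with IL1B, and at P10 4.99 to 5.86 and 5.48 to 6.20. Of these 7, Cd3g, which encodes a chain of the T cell receptor complex, was called higher in CD11B+ cells at both ages, by at least 2.63-fold at P5, where it was above background on 0 of 6 PBS arrays (adjusted p = 3.96e-05), and at P10 with 1 of 6 PBS arrays above background (adjusted p = 0.0279). No other of the 7 was called at either age, and the median change over the list was 0.08 (log2) at P5 and 0.58 at P10. Cd3e, above background on all of these arrays, stood at -0.02 (adjusted p = 0.965) at P5 and 0.09 (adjusted p = 0.589) at P10. Its mean was 9.66 (log2) in O4+ P5 PBS and 9.69 in CD11B+ P5 PBS, each normalized within its cell type. Cd3g was above background on no O4+ array. The Cd3e probe thus did not separate the cell types, and no reading of T cells is drawn from it. The part of lymphocytes and natural killer cells was not tested.

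Among the interferon receptors and the kinases and transducers below them, Stat2, the partner of IRF9, rose 1.74-fold in CD11B+ cells at P5, where Irf9 rose 1.59-fold. In O4+ cells at P5 the interferon gamma receptor genes Ifngr1 (1.81-fold) and Ifngr2 (1.70-fold) rose. Of 17 sensors, adaptors and kinases upstream of the factors, 5 rose in CD11B+ cells at P5, led by the kinase gene Ikbke (4.39-fold), Cd14 (2.13-fold), the RNA sensor Ifih1 (2.04-fold) and Tlr7 (1.63-fold). In O4+ cells 9 rose, led by Cd14 (5.84-fold), Tlr7 (3.54-fold) and the adaptor Tmem173 (2.32-fold), and Ikbke, above background on 0 PBS arrays, was at least 1.82-fold higher. At P10 1 of the 17 rose in each cell type, Ikbke (2.39-fold) in CD11B+ cells and Cd14 (2.46-fold) in O4+ cells.

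Partner proteins were measured for 5 genes. Batf2, which binds IRF1, rose 4.46-fold and Batf, which binds IRF4 and IRF8, 2.51-fold in CD11B+ cells at P5. In O4+ cells at P5 the same genes rose 7.82-fold and 6.84-fold, Batf3 2.59-fold and Irf2bp2, an IRF2-binding corepressor, 1.88-fold. At P10 Batf2 and Batf were still called in CD11B+ cells (2.63-fold and 2.23-fold) and in O4+ cells (2.00-fold and 1.97-fold), with Batf3 at 1.60-fold in O4+ cells.

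Of 16 interferon-stimulated targets, 12 rose in CD11B+ cells at P5 and 3 at P10, and 10 rose in O4+ cells at P5 and 9 at P10. Gbp2, an interferon gamma-induced GTPase, had the largest ratio in each, 14.1-fold (3.90 ± 0.24, adjusted p = 7.2e-07) and 4.34-fold in CD11B+ cells and 14.7-fold and 3.21-fold in O4+ cells. In CD11B+ cells at P5 Ifit1 (3.41-fold), Oasl2 (3.08-fold) and the peptide transporter gene Tap1 (2.46-fold) followed, and at P10 Tap1 (2.96-fold) and the immunoproteasome gene Psmb8 (2.26-fold). In O4+ cells at P5 Mx1 (3.45-fold), the chemokine gene Cxcl10 (3.02-fold) and Psmb8 (2.90-fold) followed, and at P10 Psmb8 (3.08-fold), Cxcl10 (2.76-fold) and Tap1 (2.34-fold).

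**Figure D5:**
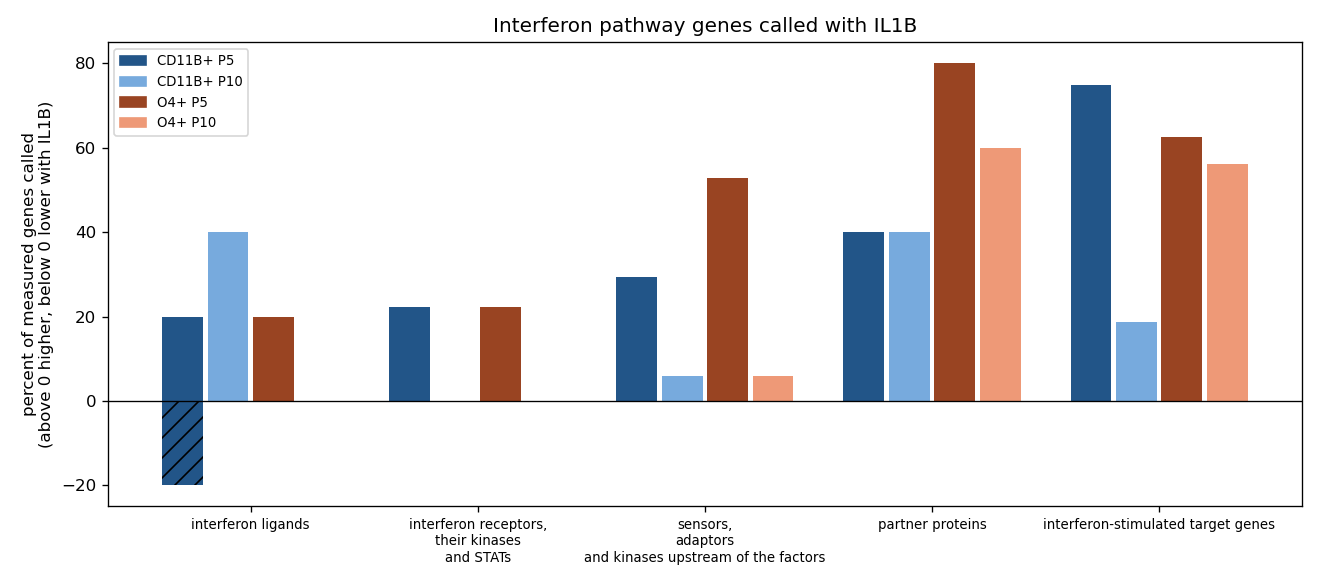
Percent of the measured genes of 5 interferon pathway lists that were called with IL1B (vertical axis, above 0 higher, hatched below 0 lower) in CD11B+ and O4+ cells at P5 and P10. The lists hold 5, 9, 17, 5 and 16 measured genes. Among the CD11B+ P5 bars that of the target genes is the tallest (12 of 16), the highest bar of all is that of the partner proteins in O4+ cells at P5 (4 of 5), and Ifnb1, a ligand gene, is the only gene called lower.

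With age in PBS pups, 16 of the 52 genes fell and 1 rose in O4+ cells, and 6 fell and 3 rose in CD11B+ cells. Over all probes 8.96% fell and 7.85% rose in O4+ cells and 3.61% fell and 4.65% rose in CD11B+ cells, and the 3 of 52 that rose in CD11B+ cells were near that share. In O4+ cells Cxcl10 (ratio -9.98), Cd14 (-3.27) and Batf (-2.82) fell and Socs1, a feedback inhibitor of cytokine signalling, rose 1.68-fold. In CD11B+ cells Ifnb1 fell (-3.48), and Tlr3 (2.00-fold) and Tmem173 (2.16-fold) rose. The 12 calls lower among microglial markers in the same O4+ samples apply to these counts too, and their part was not tested. Between the cell types in PBS pups, 41 of the 52 genes were lower in O4+ cells at P5 and 41 at P10, with 1 and 0 higher, against 21.8% and 20.2% of all probes lower and 19.8% and 22.2% higher.

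The genes most alike each factor over the 8 group means (Pearson's r over 8 groups on the 48-array scale, a description of 8 points that share their arrays) were named by their rank. Irf8 was most like Coro1a (0.999), Aif1 (0.999) and Sirpa (0.999), and Irf5 most like Snx20, Prkcd and Fermt3 (each 1.000 after rounding). Irf1 was most like Il1a (0.996), Mpeg1 (0.996) and Tgif1 (0.995), and Irf7 most like Gpr35 (0.996), Isg20 (0.994) and Csprs (0.991). Irf9 was most like Jak1 (0.998), Irf2 like Oprm1 (0.998), Irf3 like Numb (0.999) and Irf4 like Tfpi (0.999). The gap between the cell types is shared by all of these, so high values were common.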

How the data were processed

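Arrays of 48 samples were assigned to 8 groups of 6 from their labels. The intensity of every spot and its background-subtracted signal, as Agilent Feature Extraction 10.7.3.1 wrote them, are in the deposited scanner output, and the deposited matrix holds the ratio of that signal to the array median on a linear scale (largest deviation 1.86e-05 on the log2 scale, as checked). The authors quantile-normalized their arrays, used an equal-variance t-test with Benjamini-Hochberg adjustment and a fold change of medians over 1.5, and those values were not used here. No column of other samples was present. The log2 of the deposited signal was quantile-normalized within each cell type (24 arrays), or across the 48 arrays for contrasts of cell types, and spots of 1 probe were averaged. Control spots were left out, as were 278 spots marked non-uniform, none of them of a member. No spot was saturated.

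Comparisons used limma 3.58.1 under R 4.3.3, with p-values adjusted over 55681 probes. Interaction terms had no fold threshold. A probe above background on no array of the dimmer group has a lower limit, taken against the lowest signal among probes well above background, per array. For each gene the probe with most signal over all arrays was used. The text names all members, the called pathway genes reported here (at most the 4 with the largest ratio per list and comparison) and the 3 genes most alike each member. Members, lists and comparisons were chosen with earlier results of these data known. The step was tested on simulated data. Coordinates of probes are in mm9. Promoters, 11 for the 8 members, came from RefSeq (GRCm38.p6). Results for a further factor of the family and for some pathway genes are not reported here. The alternatives were other scalings, normexp with an offset of 50, the deposited matrix, only probes above background, the methods' t-test, no fold threshold, all 4 groups in 1 fit, blocks for slide, scan day and replicate number, the mean over all probes of a gene, and each array left out in turn. Precision is limited by the 6 arrays of each group.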

Additional observations from a re-analysis of the deposited data

Results flagged for a closer look

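In 8 of 64 pairs of factor and group 1 sample lay far from the other 5. The measure was the gap to its nearest neighbour over the range of the group. The factors share their arrays, so the pairs are not independent, and this count was not tested. Irf2 was lowest in replicate 6 in O4+ P10 PBS (0.701), O4+ P10 IL1B (0.676) and CD11B+ P10 IL1B (0.66), and Irf3 was highest in replicate 6 of O4+ P10 PBS (0.66). The replicate 6 arrays of O4+ P10 PBS, O4+ P10 IL1B and CD11B+ P10 IL1B were the 3 arrays of 1 slide and the only ones scanned on their day, so for these 4 pairs the sample cannot be told apart from its slide. Irf3 was highest in replicate 5 of CD11B+ P5 PBS (0.775). Irf7 was highest in replicate 3 of O4+ P10 IL1B (0.668), and Irf9 in replicate 3 of CD11B+ P10 IL1B (0.742) and replicate 4 of O4+ P5 IL1B (0.629).

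The response to IL1B differed between ages or cell types by the interaction term for these factors. In CD11B+ cells the P10 response minus the P5 response was -0.76 for Irf2, 1.27 for Irf4 and -0.58 for Irf9 (log2). In O4+ cells it was -0.62 for Irf2 and -0.88 for Irf5. The response of O4+ cells minus that of CD11B+ cells at P5 was 1.11 for Irf4, 1.13 for Irf5 and 1.30 for Irf8, and at P10 it was 0.63 for Irf8.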

How the results depend on the processing

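The count of called factors changed under these alternatives. For IL1B in CD11B+ cells at P5 (3 called) it was 6 with no fold threshold and 1 with slide as a block. In CD11B+ cells at P10 (1 called) it was 2 with normexp, with only probes above background, with no fold threshold or with all 4 groups in 1 fit, and 0 with slide as a block, the replicate block or the mean over all probes of a gene. In O4+ cells at P5 (4 called) it was 2 with slide as a block, 6 with no fold threshold and 3 with normexp, normalization over 48 arrays, the matrix, the methods' t-test, all 4 groups in 1 fit, scan day, the replicate block or the mean over all probes of a gene, and at P10 (2 called) 4 with 75th percentile scaling, the deposited matrix, only probes above background or all 4 groups in 1 fit. For age in O4+ PBS cells (4 called) it was 3 with normexp and 5 with no fold threshold. Between cell types at P5 (7 called) it was 8 with 75th percentile scaling, the matrix or no fold threshold. For age in CD11B+ PBS cells (0 called) it was 1 with the matrix and 5 with no fold threshold. For the age difference of the response it was 1 with the matrix in CD11B+ cells (3 called), and 1 with the matrix or slide as a block in O4+ cells (2 called). For the P10 difference between cell types (1 called) it was 0 with 75th percentile scaling, the matrix or slide as a block. Where slide or day held both groups, it entered as a fixed block, otherwise as a random one. The cause of these changes was not tested.

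With each array left out in turn, the count ran from 3 to 3 in CD11B+ P5, 0 to 2 in CD11B+ P10, 3 to 4 in O4+ P5, 2 to 3 in O4+ P10, 0 to 2 for CD11B+ age, 4 to 4 for O4+ age, 7 to 7 and 8 to 8 between cell types at P5 and P10, 3 to 4 and 2 to 3 for the age differences in CD11B+ and O4+ cells, and 3 to 4 and 0 to 1 for the cell type differences at P5 and P10. No value of a called factor changed direction under the alternatives run. The replicate numbers were checked for pairing. The correlation of same-numbered samples lay between -0.081 and 0.482 and did not exceed 0.1 for every pair, so they were not taken as pairs. Between cell types, whose samples came from the same animals, 4 of 6 PBS samples at P5 and 5 of 6 at P10 correlated best with their own number, a hint from the data, since the labels do not tie a number to the same pool. With the replicate block the counts were 3, 0, 3 and 2 for IL1B in CD11B+ P5, CD11B+ P10, O4+ P5 and O4+ P10, and 7 and 8 between cell types at P5 and P10. The number of arrays and, for Irf4 in O4+ cells, signal near background limit what can be seen. All 4 groups in 1 fit was not run for the age differences, whose fit already holds them.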

Other observations

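The same replicate number carried the extreme value in both cell types in part of the groups. Of 32 pairs of factor, age and treatment, the highest sample had the same number in CD11B+ and O4+ cells in 12 and the lowest sample in 8. The counts were 0 and 0 of 8 at P5 with PBS, 4 and 3 of 8 at P5 with IL1B, 3 and 1 of 8 at P10 with PBS and 5 and 4 of 8 at P10 with IL1B. Unrelated samples, with 6 numbers per group, would match in about 1 of 6 pairs. The factors share their arrays, so the pairs are not independent, and these counts were not tested. Irf1, Irf7 and Irf9 were highest in replicate 4 at P5 with IL1B and in replicate 3 at P10 with IL1B in both cell types. For Irf7 at P10 with IL1B this sample stood at 9.38 (log2) in CD11B+ cells and 7.26 in O4+ cells. Of the 4 shared lowest samples at P10 with IL1B, those of Irf1, Irf2 and Irf9 were replicate 6, whose arrays of both cell types were on the same slide.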
